A study of Mus musculus with 12 samples.

Results

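The ribosomal protein genes encode the proteins that join the ribosomal RNAs in the small and the large subunit of the cytosolic ribosome. They were taken as all rows of the deposited expression table whose symbol was Rps or Rpl with a number, with an a, l or x after it or not, together with Rplp0, Rplp1, Rplp2 and Rpsa, and with no symbol ending in -ps. The rule found 60 of the 38739 symbols in the table, 24 with small subunit names and 36 with large subunit names. In the GENCODE annotation of GRCm39, 81 protein-coding genes fit the same rule, and 23 of them were not analysed here, all on chromosomes 13 to 19 or X. Of the 60, Rpl32l and Rpl6l are annotated as processed pseudogenes, that is, intronless copies made from an mRNA.

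The samples were 12 RNA-seq libraries of bone marrow-derived macrophages (BMDMs) from C57BL/6J wild-type mice (WT) and from mice lacking cGAS, the cytosolic DNA sensor, in the whole body (cGAS-/-). Cells were left in medium (untreated, UT) or activated with lipopolysaccharide (LPS, a component of the bacterial outer membrane), and each of the 4 groups (WT UT and LPS, cGAS-/- UT and LPS) had 3 libraries. Per the labels the dose was 100 ng/mL for 1 h, while the methods give a higher dose and a longer exposure, and the extraction text of the labels names neutrophils. The study describes its triplicates as technical, so the p-values may measure technical spread alone. Values are TPM (transcript abundances scaled to transcript length and library) that appear to be averaged over the transcripts of a symbol, and read depth is unknown, so no counting error is given.

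Cgas itself was at 2.67 to 2.89 in WT UT, at 1.19, 2.88 and 3.25 in WT LPS, and at 0.0703 to 0.291 in the 6 cGAS-/- libraries. All 7 of the macrophage markers that were listed were detected. The summed B cell markers were at 108 to 134 in WT UT, 30.6 to 44.9 in WT LPS, 19.9 to 28.5 in cGAS-/- UT and 3.04 to 8.84 in cGAS-/- LPS. The summed markers of neutrophils and their precursors were at 139 to 213, 35.5 to 353, 52.9 to 126 and 46.4 to 59.9 in the same order, with Elane at 0 in cGAS-/- UT. The part of either list in the results was not tested. The 3 WT LPS libraries did not resemble each other. The third of them had a column total of 709802, against 447189 to 503156 in the other 11, and in it Fth-ps3, a ferritin pseudogene, held 31.7% of the total. The main counts and medians that rest on the WT LPS group are therefore also given without that library.

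Ribosomal protein mRNAs are among the most abundant in a growing cell, and the proteins are made in matched amounts. Most of these mRNAs begin with a C followed by a run of pyrimidines, the 5′ terminal oligopyrimidine (TOP) motif, through which mTORC1 signalling controls their translation. In bulk RNA, fewer cells and less RNA per cell cannot be told apart.

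The RefSeq promoter table (GRCm38.p6) held 44 of the 60 genes, and the letters CTTTC, searched within 50 bases on either side of a start on the strand of the gene, were in 23 of the 44 (52.3%), against 14.6% of all 27025 genes in that table. On the opposite strand the shares were 4.55% and 13.8%. The related letters CTTCC were present on the gene strand in 40.9% of the 44 genes and 22.2% of all genes, and on the opposite strand in 31.8% and 24.8%, a smaller contrast between the strands than for CTTTC. A match is a description of these letters and not a tested site. The genes with and without CTTTC had nearly the same median log2 fold change of LPS against UT in cGAS-/- cells, -0.52 over 23 genes and -0.51 over 19 genes tested. In the windows printed here, 25 bases on either side of the start, capitals mark CTTTC. They show the starts of the 4 genes described first for cGAS-/- LPS, of which Rps21 has 2 listed, and of Rps27l, a paralog of Rps27, and the letters are present in some of them and absent in others. They lie at chr2:32961687-32961736, chr2:180257354-180257403 and chr2:180257424-180257473 on the plus strand, chr10:23787185-23787234 on the minus strand, chr3:90213624-90213673 on the minus strand and chr9:66946061-66946110 on the plus strand, in the order printed, and Rps27l has another listed start.
Rpl12: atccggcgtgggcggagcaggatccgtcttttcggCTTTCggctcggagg
Rps21, upstream start: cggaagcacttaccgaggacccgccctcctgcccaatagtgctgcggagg
Rps21, downstream start: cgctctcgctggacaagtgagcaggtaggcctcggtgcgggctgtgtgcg
Rps12: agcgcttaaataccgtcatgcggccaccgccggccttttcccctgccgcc
Rps27: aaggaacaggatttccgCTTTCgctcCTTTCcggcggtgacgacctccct
Rps27l: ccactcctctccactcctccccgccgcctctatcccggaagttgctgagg

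In untreated cells, the summed ribosomal protein genes made up 3.51% to 3.65% of the column total in WT and 3.66% to 3.85% in cGAS-/-. After LPS the share was 2.27% to 2.36% in cGAS-/-, below every untreated library. In WT LPS the 3 libraries had 3.40%, 1.80% and 1.03%, so the first of them lay close to the untreated range. As a share of protein-coding genes alone, the sum was 8.06% to 8.32% in WT UT, 9.20% to 9.48% in cGAS-/- UT, 4.85% to 5.06% in cGAS-/- LPS, and 6.25%, 3.60% and 5.59% in WT LPS. The ratio of small to large subunit sums was 0.534 to 0.561 in 10 libraries, and 0.691 and 0.234 in the first and the third WT LPS library.

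**Figure D1:**
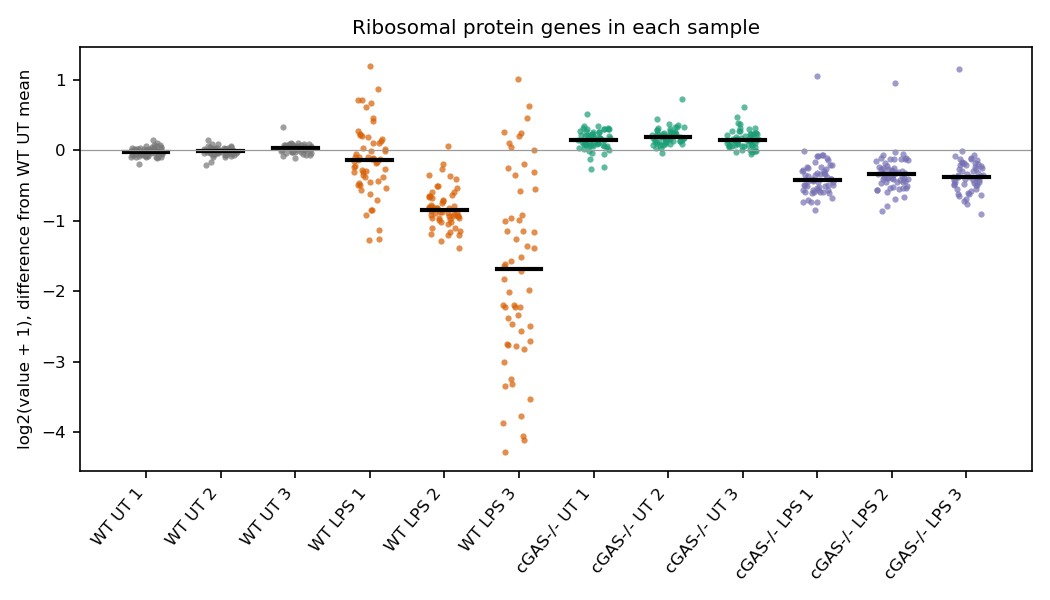
Each point is a ribosomal protein gene that passed the filter on low values (58 genes), as its log2(value + 1) in a sample minus that of its mean in WT UT (vertical axis, log2 units), for the 12 samples on the horizontal axis, with black lines at the medians. The cGAS-/- libraries form tight clouds with medians above 0 in UT and below 0 in LPS, whereas the 3 WT LPS libraries differ from each other and the third spans from below -4 to above 1.

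Of the 60 genes, 58 had a value of at least 1, with every sample brought to the same sum, in at least 3 samples. Rpl10l, a retrogene of Rpl10 known from testis, reached at most 1.88 in any library, and Rpl32l was above 0 in only 2 libraries. The highest medians over the 12 samples were those of Rplp1 (3548), Rps29 (960) and Rps15 (930), and the lowest among those that passed were those of Rpl6l (0.645), Rps4l (3.64) and Rpl5 (15.4). These are averages over transcripts whose number differs between genes, so they do not rank the genes by mRNA abundance. Within groups, the median coefficient of variation was 3.99% in WT UT, 4.94% in cGAS-/- UT, 3.42% in cGAS-/- LPS and 57.4% in WT LPS.

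In cGAS-/- BMDMs, LPS against UT showed lower values for nearly all of the genes. For 55 of the 58, all 3 LPS values lay below all 3 UT values, against 40.2% of all 11887 genes tested, and Rps4l alone lay above (15.5%). The median log2 fold change was -0.55, against -0.20 over all genes tested. The limma fit over all 12 samples shares its estimate of the spread with the WT LPS group. In it none of the 58 passed an adjusted p of 0.05 (9.06% of all genes tested were called lower). In the limma fit on the 6 cGAS-/- libraries alone, 55 were called lower, 94.8%, against 32.0% of all genes tested, and Rps4l was called higher (12.7% of all genes). Without the third WT LPS library, the fit over the remaining 11 samples called 35 lower, against 21.6% of all genes. Between these fits, the fold changes are the same and the spread differs. Scaling by TMM factors, which brought the median over all genes to 0.00, left the median of the ribosomal protein genes at -0.23. In the fit on the 6 libraries it left 30 lower, against 17.9% of all genes tested, and 3 higher (20.5% of all genes), namely Rpl19, Rps27l and Rps4l. Fth-ps3 held 7.88% to 8.42% of the column total in cGAS-/- UT and 17.2% to 17.7% in cGAS-/- LPS, and its part in the result was not tested.

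The lowest fold changes in cGAS-/- were those of Rpl12, Rps21, Rps12 and Rps27. Rpl12, a protein at the base of the ribosomal stalk, was at 23.5, 29.1 and 26.1 in UT and at 11.9, 12.5 and 12.6 in LPS. Rps21, a small subunit protein, was at 454, 389 and 390 in UT and at 236, 197 and 191 in LPS. Rps12 was at 118, 119 and 101 in UT and at 58.5, 59.1 and 58.9 in LPS. No value of these 3 genes overlapped between the groups. On the 6 libraries alone, their log2 fold changes were -1.03 ± 0.08, -0.98 ± 0.10 and -0.92 ± 0.07 (SE, n = 3 against 3; -0.72, -0.66 and -0.61 with TMM factors), with adjusted p from limma of 0.000244, 0.000741 and 0.000174, while over all 12 samples the adjusted p were 0.0657, 0.0721 and 0.186. Rps27, a zinc finger protein of the small subunit, varied more, from 122 to 180 in UT and from 79.2 to 105 in LPS.

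The genes taken for their known roles lay between these and 0. Rps6, the substrate of S6 kinases, was at 208, 224 and 228 in UT and at 175, 191 and 177 in LPS, a mean lower by 17.7%. Rps3, which lines the mRNA entry channel, was at 232, 234 and 237 in UT and at 144, 145 and 161 in LPS. Both were called lower on the 6 libraries alone, at log2 fold changes of -0.28 ± 0.05 and -0.65 ± 0.05 with limma's adjusted p of 0.00789 and 0.000214 (SE, n = 3 against 3). With TMM factors Rps6 lay at 0.040 and was not called, and Rps3 lay at -0.33. Rpl5 and Rpl11, which bind the 5S ribosomal RNA and the p53 regulator Mdm2, had log2 fold changes of -0.52 and -0.51. Rpl13a, known from translational silencing of inflammatory mRNAs, was at -0.37. Rps27a, made as a fusion with ubiquitin, was at -0.63, and Rpsa, also known as the laminin receptor precursor, at -0.62. With TMM factors these 5 genes lay at -0.21, -0.19, -0.048, -0.31 and -0.30, in the order named.

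Among the P stalk proteins, which recruit elongation factors, Rplp1 had values of 3898, 3915 and 3568 in UT and 2162, 2273 and 2308 in LPS, and its mean was 40.7% lower. Rplp0 was at 278, 279 and 262 in UT and at 204, 206 and 198 in LPS, 25.7% lower. Rplp2 was at 285, 266 and 250 in UT and at 219, 212 and 218 in LPS. All 3 genes were lower in every LPS library, with log2 fold changes of -0.75 for Rplp1, -0.43 for Rplp0 and -0.30 for Rplp2, which with TMM factors became -0.43, -0.11 and 0.020. By subunit, the median log2 fold change was -0.62 for the 24 small subunit genes and -0.50 for the 34 large subunit genes that passed, and 22 and 33 of them were called lower in the fit on the 6 libraries, against 32.0% of all genes. Over all 12 samples with TMM factors none of either subunit was called lower, against 6.69% of all genes, and the medians were -0.30 and -0.18.

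**Figure D2:**
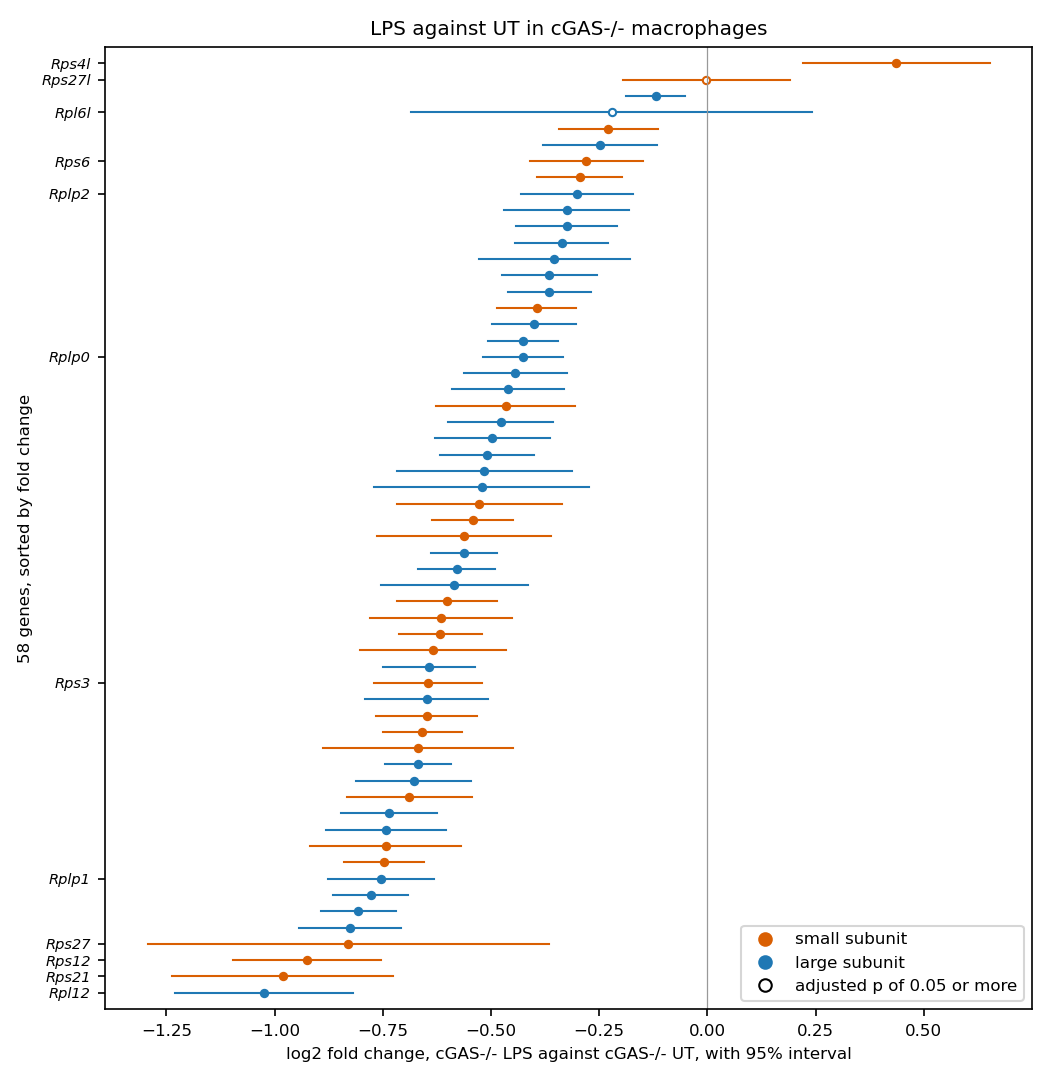
Log2 fold changes of cGAS-/- LPS against cGAS-/- UT (horizontal axis, log2 units) with their 95% intervals from the limma fit on the 6 cGAS-/- libraries, for the 58 ribosomal protein genes that passed the filter (vertical axis, sorted, some of them labelled). Orange marks small and blue large subunit genes and open circles those not called. All but Rps4l, Rps27l and Rpl6l lie below 0 with intervals that do not reach it.

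Rps4l and Rps27l departed from the others. Rps4l, a paralog of Rps4x with low values here, was at 4.32, 5.19 and 4.70 in cGAS-/- UT and at 6.73, 6.25 and 7.29 in cGAS-/- LPS. Its log2 fold change was 0.44 ± 0.09 (SE, n = 3 against 3) with an adjusted p of 0.00976 from limma on the 6 libraries. Against the median of the ribosomal protein genes of each sample, its log2 fold change was 1.01 with an adjusted p of 0.0221 (limma, all 12 samples), and it was the only gene of the 58 called in that fit (8.13% of all genes were called higher). It was called in 19 of the 27 alternatives run and lost whenever 1 of the 6 cGAS-/- libraries was left out, with a pseudocount of 5 and without a filter. Rps27l, a paralog of Rps27 induced by p53, was at 36.2, 41.7 and 43.1 in UT and at 38.4, 42.4 and 39.7 in LPS. Its log2 fold change was 0.00, with a 95% interval of -0.20 to 0.19 on the 6 libraries.

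**Figure D3:**
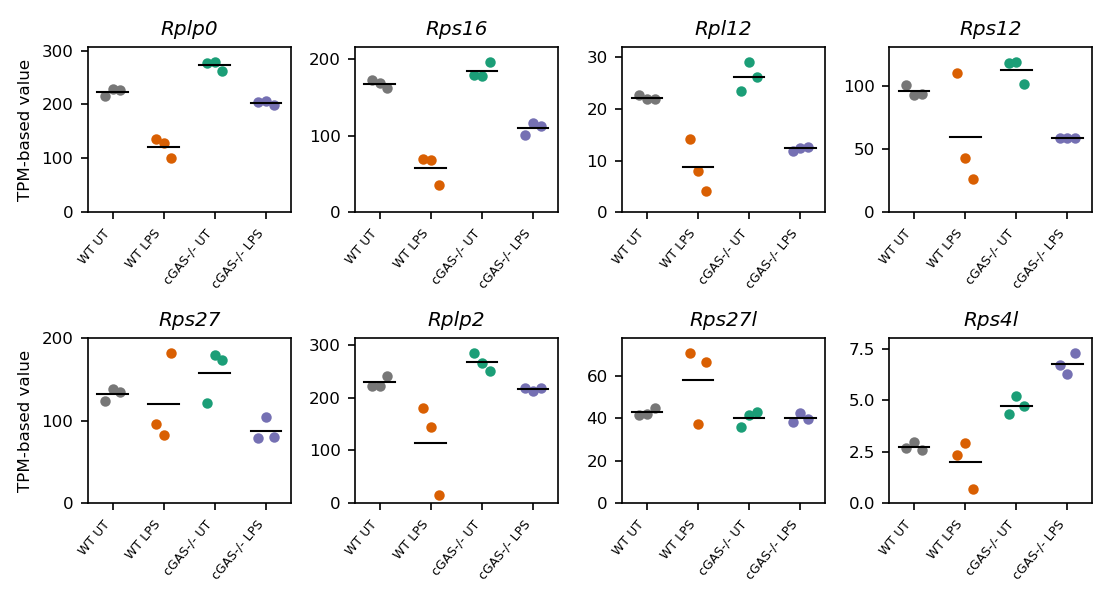
Values of 8 ribosomal protein genes (vertical axes, TPM-based value, starting at 0) in the 3 libraries of each of the 4 groups, with black lines at the group means. Rplp0, Rps16 and Rpl12 were lower with LPS in both genotypes, Rplp2 has a single WT LPS library at 14.7, and Rps4l was higher in cGAS-/-.

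In WT BMDMs, LPS against UT gave a median log2 fold change of -0.90, against -0.46 over all genes tested. Over all 12 samples limma called 12 of the 58 genes lower, 20.7%, against 23.3% of all genes tested, so the share was near that of the background, and none higher (4.31% of all genes). They included Rps16, Rpl6, Rpl12, Rpl32, Rps3, Rpl21, Rpl7, Rpl5, Rplp0, Rpsa and Rpl13a. On the 6 WT libraries alone limma called none of the 58, and 4.62% of all genes were called lower. For 29 of the 58 the WT LPS values lay below all WT UT values, against 32.9% of all genes, and for none above (5.31%). Without the third WT LPS library, 27 were called lower, against 26.5% of all genes, and the median was -0.50. Without the first, 44 were, against 22.4% of all genes. With TMM factors the median was -0.19, against -0.05 over all genes, Rps16 was the only one called (-0.84), with 11.6% of all genes called lower, and Rpl13a lay at 0.019.

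Rps16, a small subunit protein, had values of 172, 169 and 162 in WT UT and of 69.6, 68.0 and 35.1 in WT LPS. Its log2 fold change of -1.59 ± 0.27 had an adjusted p of 0.00168 in limma (SE, n = 3 against 3), and without the third WT LPS library it was -1.27. Rplp0 was at 216, 229 and 227 in UT and at 136, 128 and 101 in LPS, a log2 fold change of -0.89 with an adjusted p of 0.00803 in limma over all 12 samples. Rpl7, which contacts the 5S ribosomal RNA, was at 184, 191 and 183 in UT and at 84.4, 113 and 92.3 in LPS. In these genes all 3 WT LPS libraries lay below every WT untreated library.

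The lowest fold changes came from genes where the third WT LPS library stood alone. Rpl13 was at 199, 184 and 207 in WT UT and at 158, 84.8 and 9.20 in WT LPS, and Rplp2 was at 222, 223 and 242 in WT UT and at 180, 145 and 14.7 in WT LPS. Their log2 fold changes of -1.93 and -1.62 did not pass, at adjusted p of 0.0746 and 0.104 in limma, and without that library they were -0.76 and -0.50. Rpl26 and Rps13 behaved likewise, at 22.3 and 3.11 in that library. At the other end, Rpl31 was at 451 there, against 215 to 233 in WT UT. Relative to the mean of WT UT, the values in the third library had a median ratio of 0.264, with Rpl31 at 2.02 and 9 of 58 genes above 1. In the second library the median ratio was 0.547 and in the first it was 0.909.

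The highest fold changes in WT were those of Rps27l (0.38), Rpl27 (0.14), Rpl31 (-0.02), Rpl9 (-0.09) and Rpl7a (-0.12), none of which passed. Against the median of the ribosomal protein genes in each sample, limma called Rps27l (1.50, adjusted p = 0.0326) and Rpl27 (1.26, adjusted p = 0.0464) higher, when 16.3% of all genes were. Without the third WT LPS library both were still called, at 0.86 and 0.71. On the 6 WT libraries alone neither was called, at adjusted p from limma of 0.214 and 0.258, and Rpl27 was also lost with TMM factors, with a pseudocount of 0.1, with the replicate number as a block, with all copies added and whenever a single WT UT or cGAS-/- library was left out. Rps27l was lost whenever a single WT UT library was left out, and without 4 of the 6 cGAS-/- libraries at adjusted p from limma of 0.0509 to 0.0510. Over the 26 alternatives run, Rps27l was called in 17 and Rpl27 in 11. Rps27l was at 41.8, 42.2 and 45.0 in WT UT and at 70.9, 37.4 and 66.7 in WT LPS, so the second LPS library lay below the UT values.

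In untreated cells, cGAS-/- against WT gave slightly higher values. In 40 of the 58 genes all 3 cGAS-/- values lay above all 3 WT values, against 12.1% of all genes tested, and in none did they lie below (18.4%). The median log2 fold change was 0.17, against -0.04 over all genes. Over all 12 samples limma called none (0.252% of all genes were called higher). On the 6 untreated libraries alone it called 14 of the 58 higher, against 3.37% of all genes tested, and TMM factors left this count at 14, against 3.97%. Before TMM scaling they included Rps4l, Rps27a, Rpl31, Rpl23, Rplp0, Rps3, Rpl4, Rpl18, Rpl23a, Rpl7a, Rpl34 and Rpl7.

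Rps4l had the largest of these differences, at 2.69, 2.96 and 2.56 in WT UT, with a log2 fold change of 0.62 ± 0.09 and an adjusted p of 0.0142 on the 6 libraries (limma, SE, n = 3 against 3). Rps27a was at 218, 206 and 216 in WT and at 262, 268 and 297 in cGAS-/-, a log2 fold change of 0.37 ± 0.06. That sign held for the row alone: with the values of its pseudogene rows added, the log2 fold change of Rps27a was -0.10. Rplp0 was 1.22 times as high in cGAS-/- as in WT, and Rps3 was at 232 to 237 in cGAS-/- against 190 to 199 in WT. At the lower end, Rpl41 (0.00) and Rpl13a (0.02) had nearly the same values in both genotypes, and Rps27l was at -0.09.

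With LPS, cGAS-/- against WT gave a median log2 fold change of 0.53, against 0.20 over all genes. Over all 12 samples limma called Rps4l higher, with 1.36% of all genes, at a log2 fold change of 1.46 ± 0.28 and an adjusted p of 0.0209 (SE, n = 3 against 3). Rps4l was at 2.34, 2.91 and 0.698 in WT LPS, below the 3 cGAS-/- LPS values. On the 6 LPS libraries alone none of the 58 was called by limma (0.0168% of all genes were called higher). In 14 of the 58 the cGAS-/- values lay above all WT values, against 12.6% of all genes tested, and in none below (5.17%). Without the third WT LPS library the median was 0.13 and 8 genes were called higher, against 3.84% of all genes: Rps4l, Rps16, Rplp0, Rpl4, Rpsa, Rpl7, Rpl6 and Rplp2. Rplp2, Rpl13, Rpl26 and Rps13 had log2 fold changes of 1.54, 1.43, 1.39 and 1.33 that did not pass, and Rps27l, Rpl31, Rps27, Rpl27 and Rplp1 of -0.47, -0.42, -0.37, -0.30 and -0.17. With the third WT LPS library left out, the first 4 lay at 0.42, 0.25, 0.36 and 0.13, of which Rplp2 passed. The other 5 then lay at -0.35, 0.087, -0.026, -0.26 and -0.19. The sign of Rps13 held for its row alone: with the values of its pseudogene rows added, its log2 fold change was -0.14.

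The LPS effects of the 2 genotypes were compared through the interaction term. Limma called none of the 58 (0.732% of all genes were called higher). The median difference was 0.37 as deposited, -0.03 with TMM factors and -0.06 without the third WT LPS library, so its sign depended on the scaling and on that library. The LPS comparison in WT and the comparison of the genotypes with LPS share the WT LPS samples.

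**Figure D4:**
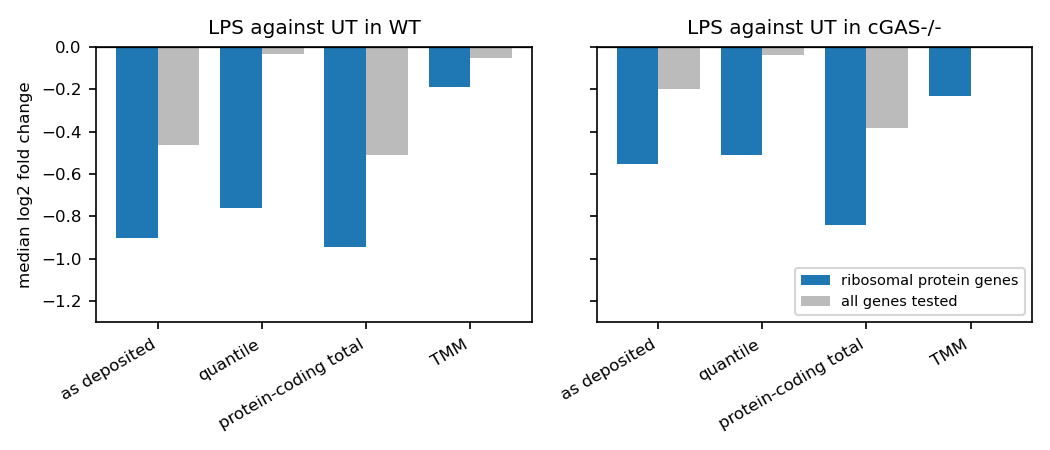
Median log2 fold change of LPS against UT (vertical axis) for the 58 ribosomal protein genes (blue) and for all 11887 genes tested (grey), in WT and in cGAS-/-, under 4 scalings of the samples. The blue bars are below 0 in every case and lie below the grey bars, by 0.44 in WT and 0.35 in cGAS-/- as deposited and by 0.14 and 0.23 with TMM factors.

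Reads of ribosomal protein genes are hard to place, because the genome holds many processed copies. Of the 60 genes, 52 shared a stretch of at least 75 bases at 97% identity or more with another symbol of the table, and for 21 these stretches covered 50% or more of the reference transcript. For 13 genes a copy had the higher median. These copies were chosen after their values were seen. Values appear to be averaged over the transcripts of a symbol, and Rpl27a has 30 annotated transcripts and Rpl12 has 59. A higher value of a copy is therefore not evidence of more mRNA or more reads. Rpl27a had a median of 72.3 against 1063 for Gm7536, a processed pseudogene at chr3:24387232-24387675 (GRCm39), and Rpl12 of 18.0 against 239 for Gm10275 at chr10:29574792-29575286. Rps27 had a median of 123 against 787 for Rps27rt, an annotated protein-coding copy on chromosome 9. The identity is complete over 444, 495 and 345 bases, so reads from these stretches cannot be assigned to either locus from their sequence.

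The start of the coding sequence differs between Rps27 and Rps27l and is the same in Rps27 and Rps27rt. The first 90 coding bases are printed, and in Rps27l capitals mark the bases that differ from Rps27. Rps27rt has 0 differences over the 252 coding bases, Rps27l has 24 in the first 90 and 60 in all. The Rpl12 stretch is likewise shared unchanged by Gm10275.
Rps27: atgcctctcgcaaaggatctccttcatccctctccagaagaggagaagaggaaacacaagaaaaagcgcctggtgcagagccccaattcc
Rps27l: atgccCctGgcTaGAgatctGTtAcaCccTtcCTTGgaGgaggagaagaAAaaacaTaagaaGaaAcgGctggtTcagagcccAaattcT
Rpl12: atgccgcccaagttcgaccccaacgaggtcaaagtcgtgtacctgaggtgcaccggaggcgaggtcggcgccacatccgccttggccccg

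**Figure D5:**
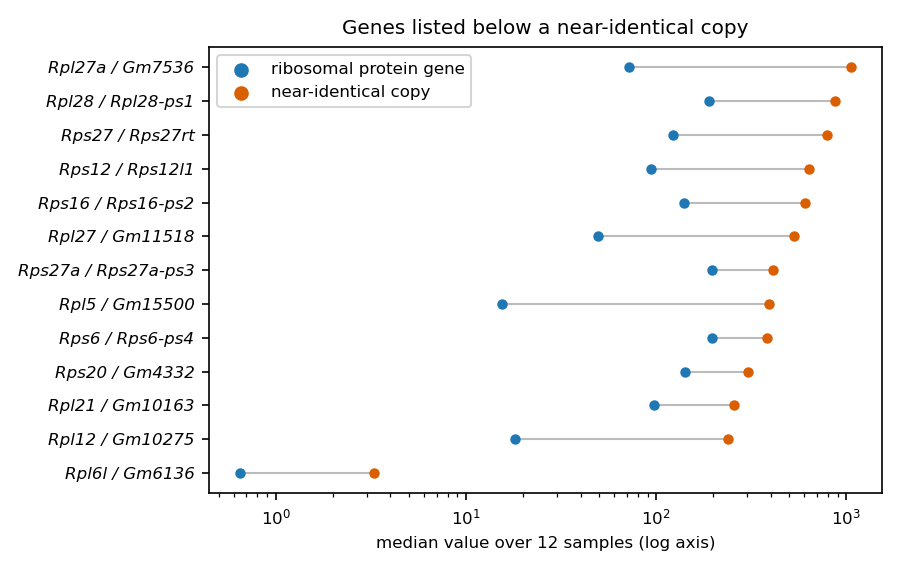
Median over the 12 samples (horizontal log axis, TPM-based value) of the 13 ribosomal protein genes that lay below a near-identical copy (blue) and of that copy (orange), one pair a row. The values of the copies exceed those of their genes by up to more than 10 times, as in Rpl27a, Rpl5, Rpl12 and Rpl27. These 4 genes have 30, 16, 59 and 9 annotated transcripts. Values appear to be averaged over the transcripts of a symbol, so the ratios do not compare amounts of mRNA.

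Of the 13 copies that lay above their gene, 8 were called lower in cGAS-/- LPS by limma on the 6 libraries and 5 were not called, and of their genes 12 were called lower. The medians of the log2 fold changes were -0.51 for the copies and -0.59 for the genes. The pseudogene rows (symbols ending in -ps, mostly with a number after it) of all analysed parents had a median of -0.19 over the 60 tested, with 8 called lower and 1 higher, against 32.0% and 12.7% of all genes. Gm10275 was at 320, 346 and 366 in UT and at 182, 175 and 198 in LPS, a log2 fold change of -0.89, beside -1.03 for Rpl12. Rps16-ps2 was at 943, 908 and 961 in UT and at 558, 515 and 499 in LPS, a log2 fold change of -0.84, beside -0.74 for Rps16. Rps27a-ps3 did not follow, at 497, 423 and 259 in UT and 416, 377 and 402 in LPS. When the values of all copies were added to their genes, the median log2 fold change of the genes in cGAS-/- was -0.51.

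Other genes of the ribosome and of translation were read from lists. Of 9 related genes outside the rule, 6 were tested, and limma over all 12 samples called 3 lower in WT LPS and 2 in cGAS-/- LPS, against 23.3% and 9.06% of all genes, and with TMM factors none (11.6% and 6.69% of all genes were called lower). Without the third WT LPS library 3 were called lower in WT, against 26.5% of all genes. Rps3a1, a small subunit protein, was at 1089, 1145 and 1172 in cGAS-/- UT and at 700.3, 702 and 718 in cGAS-/- LPS, and its log2 fold change of -0.68 passed over all 12 samples (limma, adjusted p = 0.0317). Rpl22l1, a paralog of Rpl22, fell by 0.93 on the log2 scale in cGAS-/- with an adjusted p of 0.0303. Rack1, a scaffold on the small subunit, passed in WT over all 12 samples and in cGAS-/- on the 6 libraries alone.

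Another list mixed translation factors with TOP mRNAs and other genes, so its counts are not of TOP mRNAs alone. Of its 30 genes tested, 8 were called lower in WT LPS, 26.7%, near the 23.3% of all genes. In cGAS-/- LPS 1, Pabpc4, was called lower, 3.33%, against 9.06%. None was called higher over all 12 samples as deposited (4.31% of all genes in WT and 4.76% in cGAS-/-). With TMM factors 3 were called higher and 5 lower in WT, against 8.04% and 11.6% of all genes. In cGAS-/- the balance turned, to 5 higher and 1 lower, against 7.06% and 6.69%. When the third WT LPS library was left out, 15 were called lower in WT and 2 higher, against 26.5% and 8.26% of all genes. On the 6 cGAS-/- libraries alone 17 were called lower, 56.7%, and 7 higher, 23.3%, against 32.0% and 12.7% of all genes. Nap1l1, a histone chaperone, was at 46.7, 49.6 and 52.0 in cGAS-/- UT and at 20.1, 20.3 and 20.2 in cGAS-/- LPS, and Eef1b2, an elongation factor subunit, at 71.5 to 78.2 and 33.8 to 38.1. Eif4ebp1, the mTORC1-regulated repressor of cap-dependent translation, was called higher, at 0.91. Of 75 ribosome assembly genes tested, 16 were called lower in WT LPS, 21.3%, and none in cGAS-/- LPS over all 12 samples, against 23.3% and 9.06% of all genes. Their medians were -0.66 and -0.15, and with TMM factors -0.13 and 0.12. In WT, 25 were called lower without the third WT LPS library, 33.3%, against 26.5% of all genes, with a median of -0.42. On the 6 cGAS-/- libraries alone 18 were called lower, 24.0%, and 2 higher, 2.67%, against 32.0% and 12.7% of all genes, so these shares lay below the background. Ncl, which encodes nucleolin, was at 33.9 to 37.1 in cGAS-/- UT and at 22.6 to 23.9 in cGAS-/- LPS.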

How the data were processed

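Libraries were strand-specific and paired-end. Per the labels and the methods, the authors trimmed reads with fastp, used STAR and kallisto with GRCm39, and tested groups through edgeR and limma. The deposited table gives TPM values per symbol, without counts. That they are TPM averaged over the transcripts of a symbol was inferred: 94.6% of rows with 1 annotated transcript, but 5.97% of rows with several, had at most 6 digits. Column totals differ, and depth is unknown.

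Genes with at least 1 after bringing every column to the same sum in at least 3 samples were kept (11887, of which 58 ribosomal protein genes). Log2(value + 1) was fitted with limma 3.58.1 in R 4.3.3, with a mean per group over all 12 samples and a variance trend, and p-values were Benjamini-Hochberg adjusted over all genes and called at 0.05. Fold changes on this scale understate changes of low genes. A second fit subtracted the median of the ribosomal protein genes of each sample. The fit on the compared groups alone, TMM and quantile scaling, the protein-coding total, sample weights, other pseudocounts and filters, a replicate block and leaving out single libraries were alternatives. The fit over all 12 samples was also run on simulated data, for LPS against UT in cGAS-/- only. There each gene had the same spread in every group, unlike here, so that run cannot show the effect of the WT LPS spread. The alternatives were not simulated. Shared stretches came from blastn 2.17.0 against GENCODE transcripts, sequences from GENCODE and RefSeq.

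Genes named are the 5 largest rises and falls in each comparison, the 5 furthest from the set's median in each direction, genes of known role (Rplp0, Rplp1, Rplp2, Rpsa, Rps6, Rps3, Rpl5, Rpl11, Rpl13a, Rps27a), paralogs, the 3 highest and lowest, called genes of the lists and the highest pseudogene rows; other names were chosen after values were seen. Some genes that this rule takes are not reported here. Genes and lists were chosen with earlier results of these data known.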

Additional observations from a re-analysis of the deposited data

How the results depend on the processing

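The number of ribosomal protein genes called depended on whether the WT LPS libraries entered the estimate of the spread and on the scaling, while the median of LPS against UT stayed below 0 in both genotypes under every alternative run. Its smallest size in WT was -0.09, with TMM factors and without the third WT LPS library. The causes were not tested. Alternatives with TMM factors on part of the libraries, with the WT LPS group left out and with all copies added were chosen after seeing the data. Depth is unknown, and groups of 3 possibly technical samples limit the precision.

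The percentages are the shares of all genes tested that were called in either direction in the same fit. For LPS against UT in WT, the 12 calls (27.6%) became 1 with TMM factors (19.6%), 36 with the protein-coding total (39.9%), 0 on the compared groups alone with or without TMM factors, 5 with TMM factors and the third WT LPS library left out (31.3%), 0 at both thresholds of the methods, and 4 (16.5%) to 44 (28.1%) when single libraries were left out. For LPS against UT in cGAS-/-, the 0 calls became 1 with a pseudocount of 5 (15.4%) or TMM factors (13.7%), 2 without a filter (5.79%), 5 with quantile normalization (15.1%), 21 with the protein-coding total (22%), 56 on the compared groups alone or with the WT LPS group left out (44.6% in both), 33 on the compared groups with TMM factors (38.4%), 51 with sample weights (48.3%), 4 with TMM factors and the third WT LPS library left out (29.7%), and 0 to 36 (30.8%) when single libraries were left out. For cGAS-/- against WT in UT, the 0 calls became 14 on the compared groups alone with (10.3%) or without TMM factors (10.4%), 4 with sample weights (11.5%), 21 with the WT LPS group left out (13.8%), 2 with TMM factors and the third WT LPS library left out (6.34%), and 0 to 1 (5.33%) when single libraries were left out. For cGAS-/- against WT with LPS, the 1 call became 0 with a pseudocount of 0.1, on the compared groups alone with or without TMM factors and at both thresholds of the methods, 3 with quantile normalization (4.64%) or sample weights (2.49%), 2 with the protein-coding total (2.33%), 5 with TMM factors and the third WT LPS library left out (13.7%), and 0 to 9 (27.9%) when single libraries were left out. For the interaction, 0 calls became 0 to 1 when single libraries were left out.

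Against the median of the set, the 2 calls of LPS in WT (18.4%) became 1 with a pseudocount of 0.1 (13.5%), TMM factors (12%) or all copies added (15.7%), 6 with a pseudocount of 5 (59.6%), without a filter (52.1%) or with TMM factors and the third WT LPS library left out (17.1%), 0 on the compared groups alone and at both thresholds, 12 with sample weights (61.1%), and 0 to 16 (69.7%) when single libraries were left out. The 1 call of LPS in cGAS-/- (10.2%) became 0 with a pseudocount of 5, without a filter and at both thresholds, 27 on the compared groups alone (55.0%), 26 with TMM factors there (45.8%), 22 with sample weights (60.3%), 28 with the WT LPS group left out (55.0%), 3 with TMM factors and the third WT LPS library left out (17.7%), and 0 to 5 (24.9%) when single libraries were left out. The 0 calls of cGAS-/- against WT became 3 on the compared groups (23.0%) and 7 with sample weights (29.8%) in UT, 8 with the WT LPS group left out (30.4%), and with LPS 1 with a pseudocount of 0.1 (2.31%) or pseudogene rows added (3.06%), 4 with sample weights (54.0%), and 0 to 17 (66.3%) when single libraries were left out.

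Some named genes changed sign, not all of them near 0. Rpl13a in WT, and Rps27a in UT and Rps13 with LPS between genotypes, were away from 0 as deposited. With TMM factors Rpl31, Rpl9, Rpl7a and Rpl13a were at 0.74, 0.67, 0.63 and 0.019 in WT, and Rps27l, Rpl19 and Rps9 at 0.31, 0.20 and 0.090 in cGAS-/-. Without the third WT LPS library as well, Rpl9 and Rpl7a were at 0.23 and 0.089 in WT, and Rpl31 at 0.032 between genotypes with LPS. Quantile normalization put Rpl9 in WT at 0.0065 and Rplp1 between genotypes with LPS at 0.12, and sample weights put Rps27l in cGAS-/- at 0.0071. With pseudogene rows added, Rps27a in UT and Rps13 with LPS were at -0.10 and -0.14 between genotypes, and with all copies added at -0.095 and -0.10, with Rpl7a in WT at 0.10. When single libraries were left out, Rpl27, Rpl31, Rpl9 and Rpl7a in WT ranged from -0.15 to 0.46, -0.53 to 0.44, -0.20 to 0.13 and -0.32 to 0.078, Rps27l in cGAS-/- from -0.077 to 0.046, Rpl41 and Rpl13a in UT from -0.016 to 0.026 and -0.023 to 0.058, and Rpl31 and Rplp1 with LPS from -0.88 to 0.087 and -0.46 to 0.15.

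The replicate numbers did not pair the samples: correlations of same-numbered deviations were -0.03 to 0.04, and 4 of 12 samples correlated best with their own number. With the replicate number as a block, 10 genes were called in WT LPS (24.9%), 0 in cGAS-/- LPS (11.9%), 0 between genotypes in UT (1.43%) and 1 with LPS (1.51%), and 1 against the median of the set in WT LPS (16.2%), where the call of Rpl27 was lost.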

Other observations

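Pseudogene rows of ribosomal protein genes (symbols ending in -ps, with a number after it in all but 4) made up 2.79% to 2.92% of the column total in WT UT, 2.10%, 1.51% and 0.707% in the 3 WT LPS libraries, 3.06% to 3.19% in cGAS-/- UT and 1.93% to 1.97% in cGAS-/- LPS. Of the 214 rows, 59 belong to a parent gene that was not analysed here and 155 to an analysed one. A median of 100 or more was reached by 13 of the 59 and by 4 of the 155. Of the 13, the 3 rows Rpl35a-ps2, Rpl35a-ps4 and Rpl35a-ps6 held the same value in every sample, so that 11 remain when they are counted once, and 7 of the 10 highest rows had a parent that was not analysed here. The 5 highest were Rps23-ps1, Rpl10-ps3, Rpl36a-ps2, Rpl28-ps1 and Rps10-ps1. Rps23-ps1 was at 2269, 2321 and 2120 in cGAS-/- UT and at 1467, 1647 and 1530 in cGAS-/- LPS, a log2 fold change of -0.53, and Rpl10-ps3 was at 1922, 1863 and 1883 in cGAS-/- UT and at 935, 955 and 990 in cGAS-/- LPS, a log2 fold change of -0.98. Of the tested rows whose parent was not analysed here, 16 of 35 were called lower on the 6 cGAS-/- libraries by limma, against 8 of 60 of those with an analysed parent and 32.0% of all genes, where these 3 identical rows count separately, and this difference was not tested.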
